A study of Homo sapiens with 6 samples.

Results

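The enzymes described here make up most of the pentose phosphate pathway and add a pair of other enzymes that make NADPH. The genes are H6PD, PGD, PGLS, RPIA, RPE, TKT, TALDO1, ME1 and IDH1, 9 of the 18365 genes measured. They were taken by symbol, and the brightest probe on average stands for each gene. H6PD was picked because it was among the largest rises in these samples, so its values are a description and no test of it is offered. The other genes were chosen as its pathway with the same comparison known, so their calls are descriptions as well.

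The samples are RNA of LX2, an established line of human hepatic stellate cells, hybridized to 6 Phalanx arrays of 1 channel each: 3 of cells treated with Syy and 3 of control cells. Syy is known only by that code name; the submitters call it a small compound that inhibits secretion by stellate cells. The sources used here do not give dose, duration or the vehicle of the controls, and all samples are of the same line, so they speak for that line alone. Nothing in the labels says that samples came from separate cultures, so the spread between them may be technical.

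The pentose phosphate pathway burns glucose phosphate in an oxidative branch, which yields NADPH, and a reversible branch, which exchanges sugar phosphates and yields ribose phosphate for nucleotides. NADPH drives fatty acid and sterol synthesis and keeps glutathione and thioredoxin reduced. PGLS, PGD, RPIA, RPE, TKT and TALDO1 act in the cytosol. H6PD sits in the lumen of the endoplasmic reticulum, where it carries out both the dehydrogenase and the lactonase step and supplies the NADPH used there by the steroid reductase HSD11B1. ME1, the cytosolic malic enzyme, and IDH1, the isocitrate dehydrogenase of cytosol and peroxisomes, make NADPH from other substrates. PGD, TKT, TALDO1, ME1 and IDH1 are known in human cancer cells as targets of NRF2, a transcription factor that binds the antioxidant response element.

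The promoters of 3 genes are shown because they set the gene whose level differed beside 2 genes that carry the core of that element. Each runs from 250 bases before to 50 bases after the gene's start (RefSeq, GRCh38.p14), and capitals mark matches to TGACNNNGC on either strand.
H6PD, chr1:9239597-9239896, plus strand: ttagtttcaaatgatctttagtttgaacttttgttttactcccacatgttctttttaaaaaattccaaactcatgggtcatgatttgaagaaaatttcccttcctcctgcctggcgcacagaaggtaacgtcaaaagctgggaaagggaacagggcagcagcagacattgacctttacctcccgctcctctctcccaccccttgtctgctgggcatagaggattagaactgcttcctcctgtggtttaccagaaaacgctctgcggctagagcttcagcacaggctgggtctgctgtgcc
PGD, chr1:10398814-10399113, plus strand: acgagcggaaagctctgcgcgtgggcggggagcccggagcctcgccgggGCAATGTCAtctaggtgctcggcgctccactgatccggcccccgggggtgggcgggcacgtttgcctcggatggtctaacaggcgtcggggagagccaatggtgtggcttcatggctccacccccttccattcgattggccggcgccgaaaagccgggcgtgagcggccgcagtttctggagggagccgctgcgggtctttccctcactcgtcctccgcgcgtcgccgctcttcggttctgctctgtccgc
ME1, chr6:83431002-83431301, minus strand: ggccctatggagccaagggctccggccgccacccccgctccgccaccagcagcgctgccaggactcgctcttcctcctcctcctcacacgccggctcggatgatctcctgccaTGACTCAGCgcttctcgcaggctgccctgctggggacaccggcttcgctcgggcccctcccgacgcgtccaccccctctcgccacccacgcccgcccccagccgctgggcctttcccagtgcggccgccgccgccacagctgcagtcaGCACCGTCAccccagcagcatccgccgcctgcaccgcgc
The ME1 window held TGACTCAGC from 137 bases before the start and a further match downstream of it. PGD had 1 match, as did RPE and 1 of the 2 windows listed for IDH1. No match was found in the windows of H6PD, PGLS, RPIA, TKT and TALDO1. Of all 35116 promoter windows of this length 13.35% held the motif, so a match is common. The E-box CACGTG, held by 7.26% of all windows, was in none of the members' windows. The H6PD window was also the poorest in G and C, at 47.3% against 59.7% or more in the others.

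Array-wide, the deposited intensities had medians of 18.4 to 27.3, and the Spearman correlation between arrays over all probes was 0.968 to 0.985. It was 0.984 to 0.985 within controls, 0.973 to 0.977 within Syy and 0.968 to 0.977 between the groups. The range within Syy thus lay inside the range between the groups. Of 15 stellate cell markers 11 were above the median of all probes in at least 1 group; DES, LRAT, LUM and DCN, among the markers of quiescent stellate cells or of matrix, were not. Of the 15, 6 were past the threshold (limma adjusted p under 0.05 in the fit over all genes), all higher with Syy. Among all genes 11% were higher and 11.5% lower. The summed intensity of all 15 was 83805.2 to 92575.5 with Syy and 63447.9 to 69741.7 in controls. Hepatocyte transcripts stood out in Syy replicate 3: the summed intensity of the 16 markers measured was 27339.5 on that array, against 638.5 and 1085.5 for Syy replicates 1 and 2 and 652.9 to 1025.7 in the controls. The sum of 6 macrophage markers was 2734.8 to 3399.6 with Syy and 1617.5 to 1934.7 in controls. CD14 was the only marker of that list past the threshold (log2 change 0.72), and PTPRC, which marks all leukocytes, read 4.09 to 4.26 on every array, near the bottom of the scale. The sum of 6 endothelial markers was 101.0 to 166.2 with Syy and 67.1 to 130.1 in controls, and that of 4 cholangiocyte markers 1115.1 to 1464.5 and 991.0 to 1177.9, with SOX9 past the threshold (log2 change 0.79). The part of other cells' RNA in the results that follow was not tested. In bulk RNA, fewer cells of a type and less RNA per cell cannot be told apart.

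H6PD had the largest difference of the 9 genes. Its deposited intensity, a linear brightness, was 193.4, 220.9 and 158.7 with Syy and 57.5, 29.4 and 5.5 in the controls. All Syy values lay above all control values, and the lowest control array was near the bottom of the scale. After log2(intensity + 16) and quantile normalization, the scale used from here on, the values were 7.63, 7.66 and 7.35 with Syy and 6.15, 5.58 and 4.51 in controls. The means were 7.55 ± 0.17 and 5.42 ± 0.83 (SD, n = 3 each), a log2 difference of 2.13 ± 0.41 (SE), or 4.38-fold. It had rank 12 of 18365 from the largest rise down. The ratio of the mean deposited intensities, with neither the added 16 nor normalization, was 6.20. The added 16 shrinks changes of dim genes. Normalization lowered the difference as well: with the 16 added but no normalization it was 2.31.

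The gene has a further probe, which is steadier in the controls. It read 148.0, 111.5 and 138.5 in deposited intensity with Syy and 39.0, 35.5 and 26.7 in controls. On the normalized log2 scale its means were 7.08 ± 0.28 and 5.71 ± 0.07 (SD, n = 3 each), a difference of 1.37 ± 0.15 (SE) and again without overlap. Both probes therefore put H6PD higher with Syy, by 4.38-fold and 2.58-fold. On Syy replicate 3, which held the hepatocyte transcripts, the brighter probe read 7.35, the lowest of its Syy values, and the other probe 7.17, the middle one. Without that array the log2 difference of the brighter probe was 2.21.

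**Figure D1:**
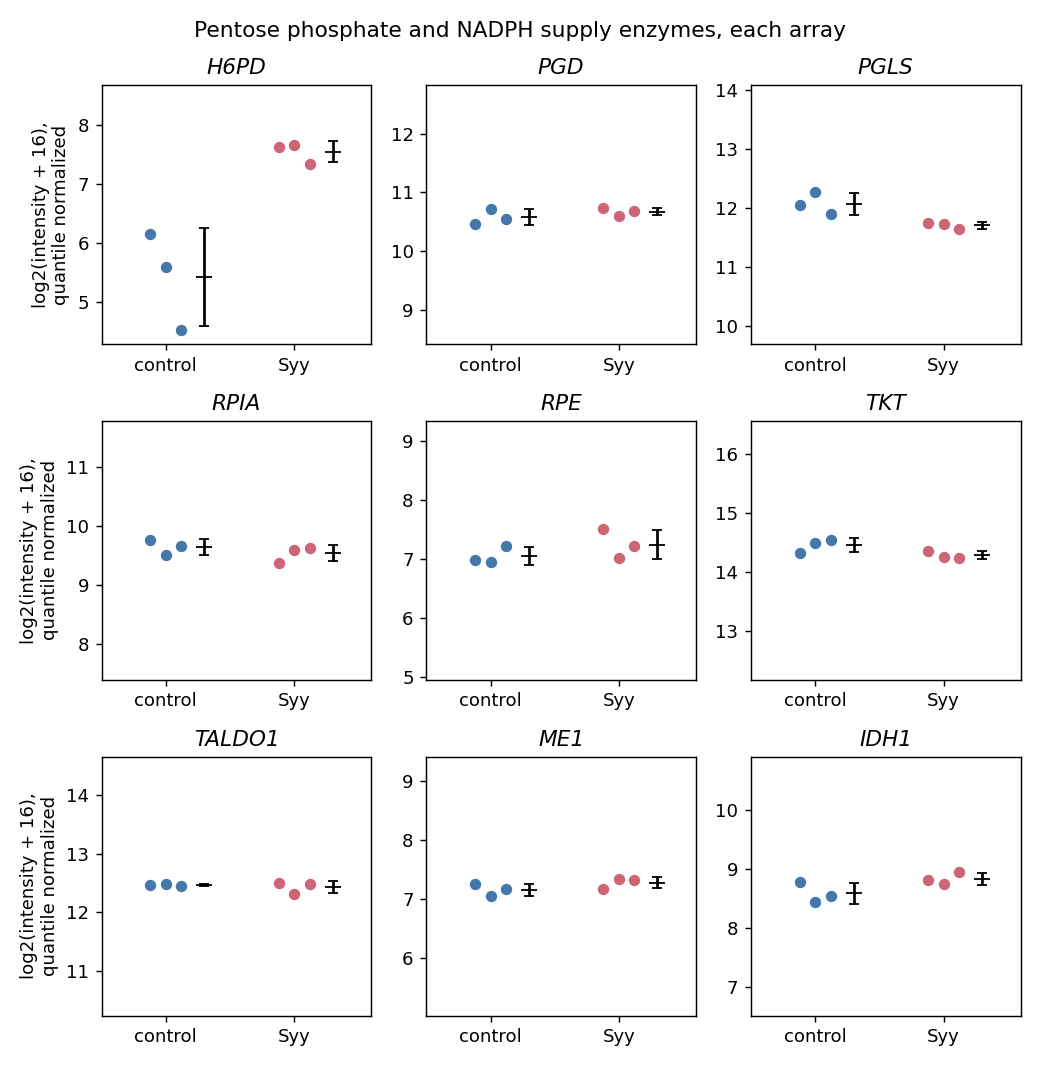
Normalized log2(intensity + 16) of the 9 genes on each array (points, 3 per group) with the group mean and SD (bars); every panel spans the same number of log2 units. H6PD is the gene whose groups stand far apart, at 5.42 and 7.55; PGLS is the other gene whose groups do not overlap, with Syy lower.

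In the fit over all genes (limma, Benjamini-Hochberg adjusted p under 0.05), H6PD was the 1 member past the threshold and 8 were not. Over all genes, 22.4% passed, 11% higher and 11.5% lower. The call of H6PD was lost without Syy replicate 1 or control replicate 2, although the log2 difference stayed at 2.09 and 2.22. The median log2 difference of the members was 0.09, and that of all genes 0.00. Without H6PD the members' changes ran from -0.37 to 0.25, with adjusted p from 0.0547 to 0.795. Their 95% intervals, which are per gene and not adjusted, lay between -0.62 and 0.55, so none reached a 2-fold difference in either direction.

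The next enzyme of the oxidative branch, PGLS, opens the lactone ring. It read 11.76, 11.73 and 11.65 with Syy and 12.05, 12.28 and 11.90 in controls. Every Syy value lay below every control value, and the log2 difference was -0.37 ± 0.10 (SE), just short of the threshold (limma adjusted p = 0.0547). It passed after median centring, among probes above the median and without control replicate 3 (adjusted p = 0.0317, 0.038 and 0.0447; from 0.0317 up to 0.195 across the alternatives). In the deposited intensities the PGLS groups overlapped, and without normalization the log2 difference was -0.27 (limma adjusted p = 0.195). After quantile normalization, groups without overlap were found in 38.3% of all genes, and among the members in H6PD and PGLS.

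PGD, which makes ribulose phosphate and the branch's further NADPH, read 10.73, 10.61 and 10.68 with Syy and 10.46, 10.72 and 10.56 in controls. The groups overlapped, with a log2 difference of 0.09 (95% interval -0.11 to 0.30). Beside it, H6PD of the endoplasmic reticulum read 2.13 higher; that contrast was not tested, because H6PD was chosen for its rise.

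Among the enzymes that sort the sugar phosphates, none passed. RPIA, the isomerase that makes ribose phosphate, had a log2 difference of -0.11 (95% interval -0.35 to 0.14). TKT, the transketolase, read 14.36, 14.25 and 14.24 with Syy and 14.32, 14.50 and 14.55 in controls, a difference of -0.17 (-0.37 to 0.02). TALDO1, the transaldolase, was the steadiest gene of the set in the controls, at 12.46 ± 0.02, against 12.43 ± 0.11 with Syy (SD, n = 3 each). The sign of RPIA depended on the scaling: its difference was 0.04 with median centring and 0.17 without normalization. TALDO1 read 0.06 without normalization.

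RPE, the epimerase, gave opposite readings from its probes. The brighter read 7.50, 7.01 and 7.21 with Syy and 6.98, 6.95 and 7.22 in controls, overlapping, with a log2 difference of 0.19 (95% interval -0.16 to 0.55); without normalization it passed at 0.45 (adjusted p = 0.0289; from there up to 0.734 across the alternatives). The dimmer read 5.57, 5.69 and 5.85 with Syy and 6.13, 6.16 and 6.24 in controls, without overlap, with a difference of -0.48 ± 0.08 (SE; adjusted p = 0.0162 in a limma fit over all probes). A close copy of RPE, RPEL1, may share its probes, and probe sequences were not used here, so the values of RPE are uncertain.

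IDH1 leaned upwards. Its brighter probe read 8.80, 8.75 and 8.94 with Syy and 8.78, 8.44 and 8.53 in controls. These groups overlapped by 1 control array, and the log2 difference of 0.25 ± 0.10 (SE) did not pass (adjusted p = 0.154). The dimmer probe read 8.44, 8.42 and 8.33 with Syy and 7.84, 7.95 and 7.91 in controls. There the groups did not overlap, the difference was 0.49 ± 0.05 (SE) and it passed in the fit over all probes (limma adjusted p = 0.00529). With the mean of both probes IDH1 passed at 0.37 (adjusted p = 0.00604). Median centring also brought it past (0.41, adjusted p = 0.0345), as did no normalization at all (0.54, adjusted p = 0.0322); across the alternatives its adjusted p went from 0.00604 to 0.545.

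ME1 read 7.17, 7.34 and 7.32 with Syy and 7.26, 7.05 and 7.16 in controls. The groups overlapped, with a difference of 0.12 (95% interval -0.07 to 0.31). Its other probe lay at the bottom of the scale, with deposited intensities of 9.6 to 10.9 with Syy and 9.2 to 16.3 in controls, and it turned the sign of the mean over probes to -0.02.

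**Figure D2:**
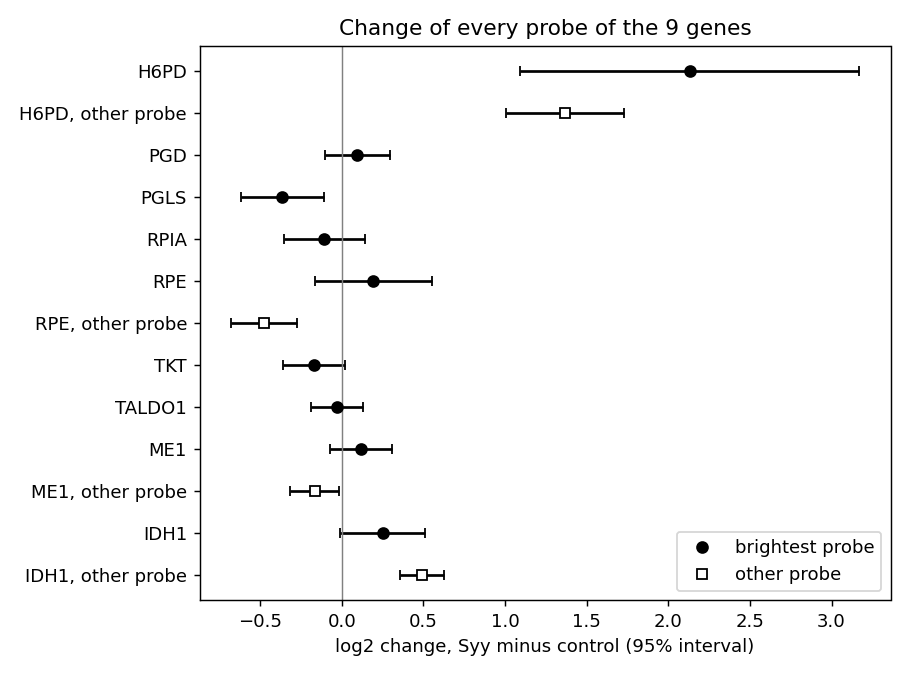
Log2 difference between Syy and control with its 95% interval for every probe of the 9 genes, from a limma fit over all probes; filled circles are the brightest probe of a gene and open squares its other probe. Both probes of H6PD lie above 1, the probes of RPE and ME1 lie on opposite sides of 0, and both probes of IDH1 lie above 0.

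The scaling of the arrays matters for these small differences. In the deposited intensities the Syy values lay wholly above the control values for H6PD, PGD, RPE and IDH1, 4 of 9 genes, and wholly below them for TKT, against 28.7% and 9.22% of all genes. For PGD the log2 difference before normalization was 0.29, where the 500 genes nearest to it in level had a median of 0.18. The same values were 0.45 and 0.22 for RPE, 0.54 and 0.31 for IDH1 and 0.37 and 0.23 for ME1. For H6PD they were 2.31 and 0.25. On the reported probes, H6PD was the gene of these 4 whose groups stayed apart after quantile normalization.

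**Figure D3:**
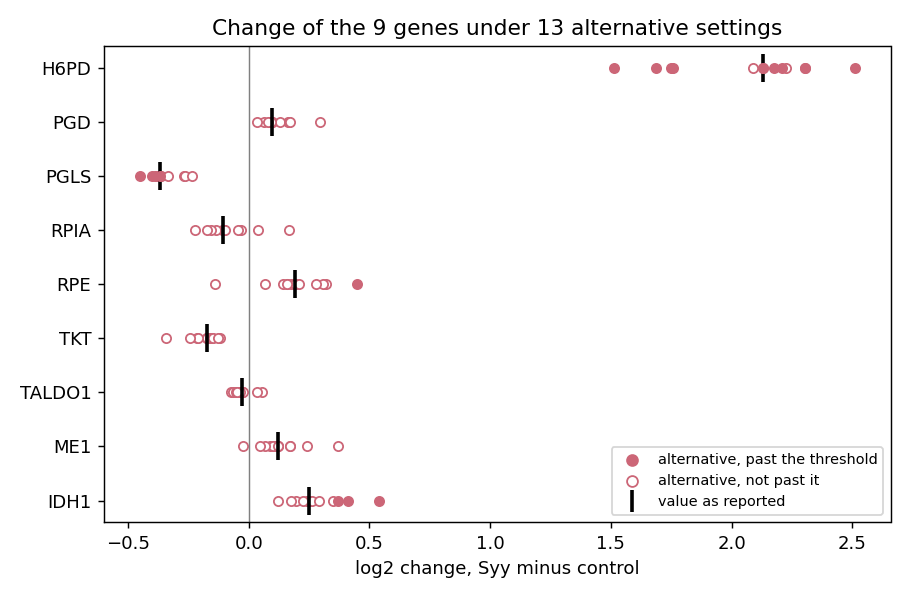
Log2 difference between Syy and control of the 9 genes as reported (black bars) and under 13 alternative settings (circles, filled where the adjusted p is under 0.05). H6PD lies between 1.51 and 2.51 throughout, and RPIA, RPE, TALDO1 and ME1 have values on both sides of 0.

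The genes that feed these enzymes or share their products were read from the same fit. Of 36 other measured genes of sugar phosphate handling and of NADPH supply and use, 11 rose, 6 fell and 19 did not pass, against 11% and 11.5% of all genes. The median log2 difference was 0.07, against 0.00 over all genes. The 36 genes were listed by function, and 30 of them were above the median of all probes in at least 1 group. In a fit of probes above the median only, 11 of 30 listed genes were higher and 6 lower. Of all 10913 genes in that fit, 2041 were higher and 2080 lower. Of the 17 calls, 8 held whichever single array was left out, those of TXNRD1, PGM1, MTHFD1, MTHFD1L, PRPSAP1, MTHFD2L, SHMT1 and HK1. The other 9 did not: among these fits RBKS and PRPS2 passed only without Syy replicate 1, and GPI only without control replicate 2. PRPS1 was lost without Syy replicate 3 or any 1 control array, ME3 without any 1 Syy array or control replicate 2, NADK without Syy replicate 1 or 2 or control replicate 2 or 3, C12orf5 without Syy replicate 2 or control replicate 1 or 2, and PRPSAP2 and POR without control replicate 2 or 3. All 17 kept their direction under the other scalings, but GPI, PRPS2, C12orf5 and POR passed under neither (adjusted p = 0.0683 to 0.612 with median centring), and RBKS did not pass without normalization (0.12).

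Genes that supply or divert hexose phosphate came out 3 higher and 1 lower of 5. This count and those of the groups that follow stand beside 11% higher and 11.5% lower among all genes. PGM1, which interconverts glucose phosphates, rose 2.12-fold, from 11.22 ± 0.23 to 12.31 ± 0.11 (SD, n = 3 each; limma adjusted p = 0.00469). HK1, a hexokinase, rose by 0.60 and GPI, which leads glucose phosphate into glycolysis, by 0.28. C12orf5, the platform's older name for TIGAR, which holds back glycolysis, fell by 0.42. Neither GPI nor C12orf5 passed with median centring or without normalization.

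Of the 7 genes around ribose phosphate, 3 rose and 2 fell. PRPS1, which makes the activated ribose phosphate of nucleotide synthesis, read 9.130, 8.397 and 8.839 with Syy and 8.004, 7.988 and 7.922 in controls, 1.76-fold higher (adjusted p = 0.0277). Its call was lost, with adjusted p of 0.0677 to 0.2, in 6 of 13 alternatives. Its sister PRPS2 fell by 0.42, but did not pass with median centring or without normalization. PRPSAP1, a protein bound to these synthetases, rose 1.87-fold (adjusted p = 0.00277) and PRPSAP2 by 0.42.

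The folate enzymes, only some of which carry out dehydrogenase steps that can yield NADPH, went both ways. MTHFD1 read 8.72, 8.68 and 8.58 with Syy and 7.74, 7.79 and 7.69 in controls, a rise of 1.90-fold (limma adjusted p = 0.00194). MTHFD1L rose 1.88-fold and SHMT1 1.63-fold. MTHFD2L fell (limma adjusted p = 0.00238). Its deposited intensities were 13.8, 14.7 and 15.4 with Syy, near the bottom of the scale, and 41.2, 32.4 and 33.1 in controls, so the size is uncertain. The log2 difference was -0.88 as reported, -0.63 with a pseudocount of 32 and -0.39 with the mean over its probes. The other 4 of these 8 genes did not pass.

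NAD kinase, NADK, which makes NADP, rose by 0.45 and the mitochondrial malic enzyme ME3 by 0.67. ME2, IDH2 and NNT did not pass. Of 5 genes that use NADPH, TXNRD1, the thioredoxin reductase, fell 2.73-fold, from 11.03 ± 0.13 to 9.58 ± 0.16 (limma adjusted p = 0.00224). POR, which feeds electrons to cytochromes P450, fell by 0.30, but did not pass with median centring or without normalization. GSR, NOX4 and CYBA did not pass. The 5 members listed above as NRF2 targets had differences of -0.17 to 0.25, and none of those passed on its reported probe. The other probe of IDH1 did pass in the fit over all probes, at 0.49. NRF2 targets beyond these 5 members were not gathered here, so the 5 do not stand for NRF2 targets in general.

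**Figure D4:**
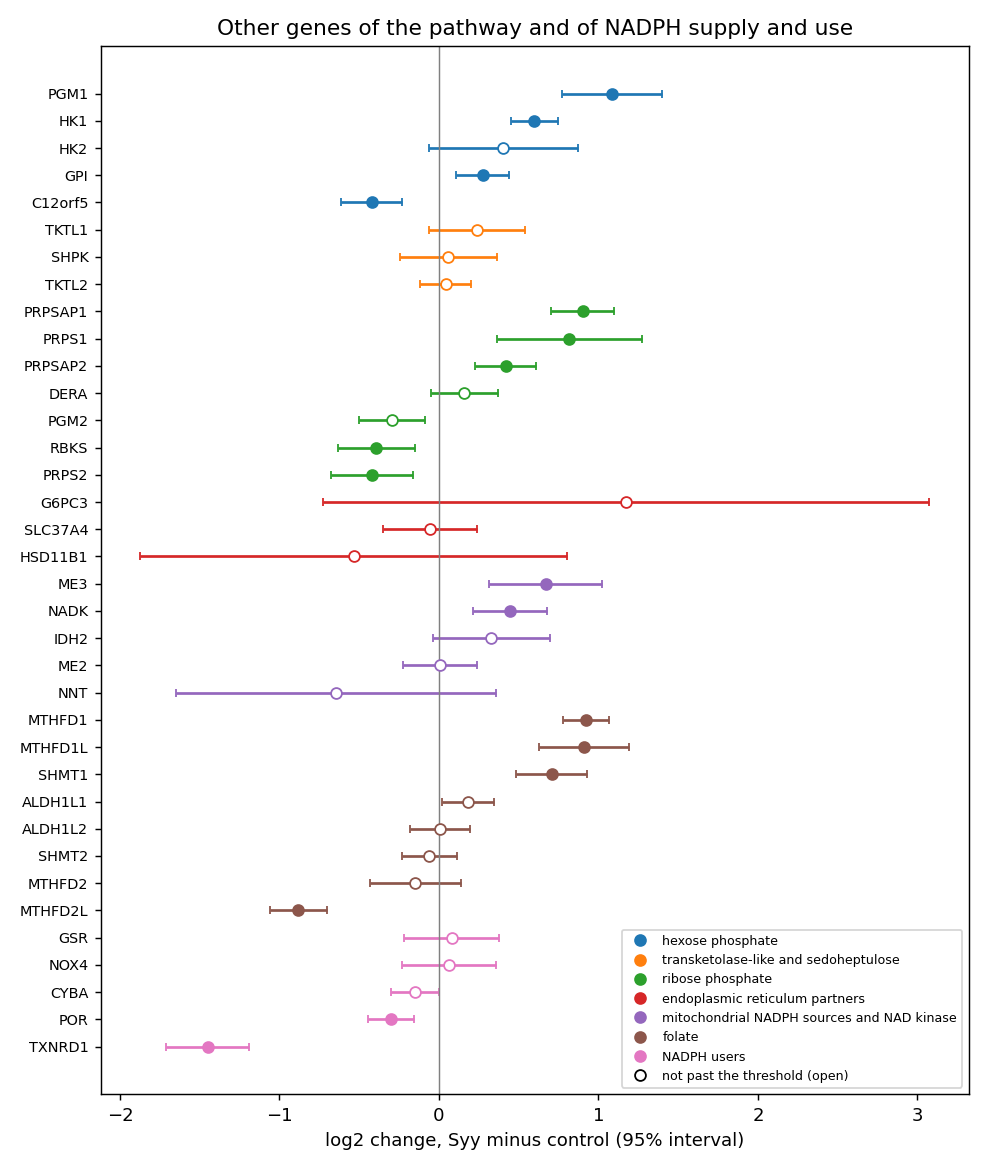
Log2 difference between Syy and control with its 95% interval for the 36 other genes, grouped by role (colours); filled points passed the threshold over all genes. PGM1 at 1.09 is the largest rise that passed and TXNRD1 at -1.45 the largest fall; the intervals of G6PC3, HSD11B1 and NNT are wide.

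H6PD works beside other proteins of the endoplasmic reticulum, and none of the 3 listed passed. SLC37A4, which carries glucose phosphate into it, read 10.22 ± 0.13 with Syy and 10.28 ± 0.19 in controls (SD, n = 3 each). HSD11B1 had deposited intensities of 2.0, 1.1 and 8.7 with Syy and 2.2, 47.7 and 2.8 in controls, so it was near the bottom of the scale on every array but control replicate 2. G6PC3, a phosphatase that competes for glucose phosphate, read 98.7, 144.1 and 3.8 with Syy and 16.3, 4.1 and 20.2 in controls. Its Syy arrays ranged from below the controls to well above them. HSD11B1 and G6PC3 are named here after their values were seen.

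The genes with the pattern nearest to H6PD were IRX3, ADAR and BLMH, of 10913 genes with a mean above the median of all probes. Likeness was the Euclidean distance between normalized log2 values centred on each gene's mean, over the 6 arrays; it was 0.42, 1.02 and 1.08. IRX3, a homeobox gene, was 2.07 higher with Syy, ADAR, an RNA-editing deaminase, 2.64 and BLMH, a cysteine protease, 1.80. H6PD was chosen for its rise, so the genes nearest to it rise by construction. The control means of IRX3 and ADAR, 4.86 ± 0.61 and 4.77 ± 0.98 (SD, n = 3 each), lay below the median of all probes, 5.31. Nearest to PGLS, the member with the largest fall in value, were CD82, GNL1 and ZBTB46, at distances of 0.11, 0.12 and 0.14.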

How the data were processed

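Total RNA of LX2 cells was amplified, labelled with Cy5 and hybridized to one-channel Phalanx arrays, per the labels' protocols. The authors deposited a linear intensity for each of 31741 probes and 6 arrays; the sources used here do not say how background and scaling were handled, and some values lie below 0 (lowest -10.6). Values were taken as log2(intensity + 16), quantile normalized, because the array distributions differed with level. No detection flags were used. Gene names came from the platform's annotation, parts of which may be outdated: 24740 had 1 symbol, 977 several and 6024 were unnamed here. The brightest probe with 1 symbol stood for a gene. The comparison used limma 3.58.1 in R 4.3.3, with p-values adjusted by Benjamini-Hochberg over 18365 genes with a threshold of 0.05. The number of arrays limits the precision. Tested on simulated data for this comparison and 18365 genes, the steps recovered 62% of the genes raised by a log2 change of 1 and 26% of those raised by 0.5. For falls of the same sizes they recovered 72% and 28%, and they called 2 of 18165 unchanged genes. The simulation changed 50 genes for each size and direction, all above the median of all probes. In the data 22.4% of genes passed, so the rates need not hold for this comparison.

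The members and lists were chosen with earlier results of these data known. Named in the text are all members, at most 8 of the other pathway genes (those that passed, did not overlap and were above the median, by size), and the 3 genes nearest in pattern to H6PD and to the member with the largest fall; further genes of the list illustrate its groups and were picked after their values were seen. Of 41 list entries, some of them older names of one gene, 36 were placed. Enzymes outside these lists were not analysed here.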

Additional observations from a re-analysis of the deposited data

How the results depend on the processing

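With 3 arrays a group, calls near the threshold move with single arrays and with the scaling. Over all genes 2017 were higher and 2104 lower. The values as deposited gave 3157 and 737 and the replicate block 1051 and 852. Leaving out 1 array gave 1205 to 1786 higher and 1079 to 1966 lower, and leaving out Syy replicate 3 and control replicate 2 together gave 566 and 535. Of the members, 1 was higher and 0 lower. Median centring gave 2 and 1, the values as deposited 3 higher, the mean over probes 2 higher, and probes above the median 1 lower. Leaving out 1 array gave 0 to 1 higher and 0 to 1 lower, and leaving out both arrays 0 higher. The adjusted p of H6PD was 0.0616 without Syy replicate 1, 0.0611 without control replicate 2 and 0.134 with Syy replicate 3 left out together with control replicate 2 (0.00441 to 0.134 across the alternatives). Without Syy replicate 2 its other probe was the brighter, with a log2 difference of 1.51. Of the other pathway genes, 11 were higher and 6 lower. Median centring gave 3 lower, the values as deposited 2 and the replicate block 2. Leaving out 1 array gave 7 to 9 higher and 2 to 6 lower, and leaving out both arrays 5 and 2. Values that changed sign, none of them called, were RPIA (0.0377 after median centring, 0.167 as deposited), TALDO1 (0.0563 as deposited and -0.0659 to 0.0328 with 1 array left out), RPE (-0.141) and ME1 (-0.0233), the last pair with the mean over probes. Why calls were lost was not tested, beyond the smaller number of arrays. The groups share replicate numbers, and the labels do not say whether these pair the samples. The deviations of same-numbered arrays from their group means correlated at -0.08, -0.08 and -0.03. Normalization and centring within groups of 3 constrain such values, so they cannot decide whether samples were paired.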

Other observations

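H6PD lies on chromosome 1, and the 10 nearest measured protein-coding genes, 5 on each side in RefSeq order (GRCh38.p14), were looked up after its rise was seen. Of these, 1 was higher with Syy, 0 were lower and 9 did not pass (limma). Over all genes 11% were higher and 11.5% lower, so 1 of 10 is near the share of all genes. The higher one was CLSTN1, a calsyntenin and the farthest of the genes on its side, at 7.83 ± 0.13 with Syy and 6.87 ± 0.13 in controls (SD, n = 3 each; log2 difference 0.96, adjusted p = 0.00334). The nearest on either side, GPR157 and SPSB1, had differences of -0.05 and 0.21 and did not pass.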
